A study of Ascodesmis nigricans with 6 samples.

Results

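A set of 97 gene models of the ascomycete Ascodesmis nigricans was examined, out of 9622 in the deposited table. These genes were abundant in protoapothecia, at least 10 times lower in every mycelium library, and still had reads in vegetative mycelium. They were chosen by their measured counts. Each had at least 100 CPM (the count over the library total, times 1000000) in both protoapothecia libraries. The lower protoapothecia CPM was at least 10 times the highest CPM of the 4 mycelium libraries, and at least 1 read was counted in a vegetative library. The difference between protoapothecia and mycelium is therefore given as a description, without a test.

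Ascodesmis nigricans is a filamentous cup fungus. Its fruiting bodies, apothecia, begin as protoapothecia, small knots of hyphae in which the sexual tissues form before the spore sacs mature. Fruiting body formation in filamentous ascomycetes is known to involve cell types that do not occur in vegetative hyphae. The identifiers of the gene models come with neither a name nor a product in the sources used here, so no role is given for any of them, and sequences and genome positions are not given.

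All 6 libraries were of strain CBS 389.68, grown for 3 days at 25 °C on a rabbit food medium with 0.8% agar and fixed in ethanol. There were 2 libraries each of protoapothecia collected by laser microdissection, of total sexual mycelium and of total vegetative mycelium, the replicates being independent biological ones per the design text. Only the protoapothecia are labelled as microdissected, so an effect of the collection and one of the tissue cannot be told apart. In bulk libraries, fewer cells of a type and less RNA per cell cannot be told apart either. The library totals ran from 11589777 to 12835772 counts.

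The 97 genes took 13.3% and 14.7% of all counts in the protoapothecia libraries. They took 0.366% and 0.534% in the sexual and 0.119% and 0.103% in the vegetative libraries. Corrected for mRNA length, their median level was 444 and 491 CPM per kb in protoapothecia replicates 1 and 2, against 9.50 and 8.70 CPM per kb over all gene models. In the sexual libraries the median of the 97 genes, 13.5 and 16.5 CPM per kb, lay below that of all gene models, 17.2 and 19.8 CPM per kb. It was lower again in the vegetative libraries, at 0.938 and 1.13 CPM per kb, where all gene models had a median of 6.98 and 7.36 CPM per kb. Of the 100 genes with the highest level per kb, 18 and 20 belonged to the set in the protoapothecia libraries, and 0 in each of the 4 mycelium libraries.

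**Figure D1:**
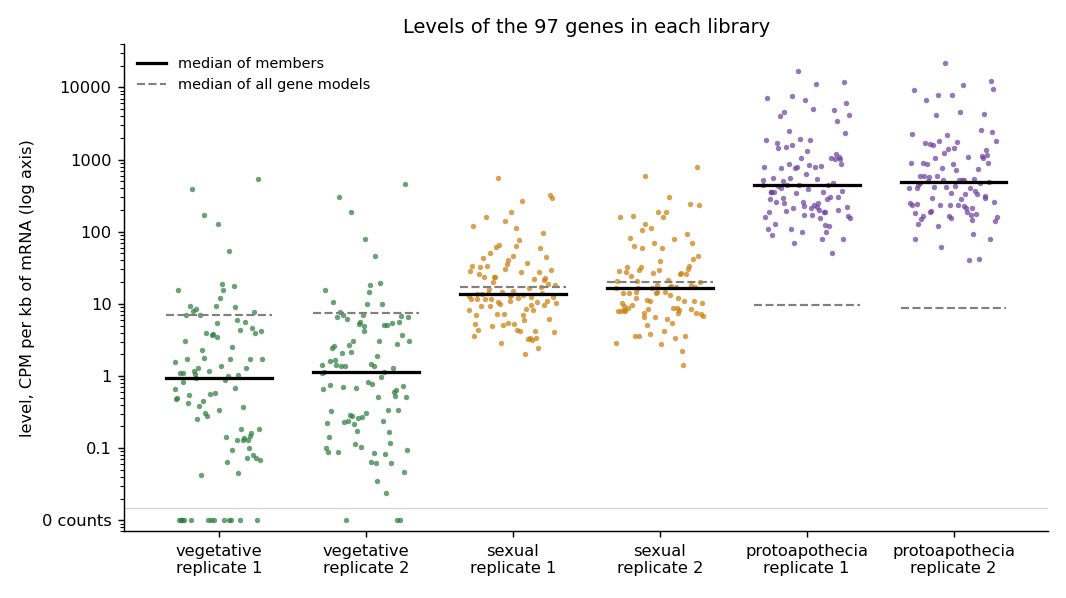
Level of each of the 97 genes in the 6 libraries, in CPM per kb of mRNA on a log axis, with genes at 0 counts drawn on the bottom row. Each point is a gene, the black line is the median of the 97 genes and the dashed line that of all gene models. The black line lies far above the dashed one in protoapothecia (444 against 9.50 CPM per kb in replicate 1) and below it in all 4 mycelium libraries.

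Levels within protoapothecia were unequal. The mean level per kb ran from 46.6 to 19348 CPM per kb, and the 8 genes with the highest levels took 43.7% and 46.4% of the counts of the set in the protoapothecia libraries. Of all gene models, the one with the highest mean level per kb in protoapothecia was proteinId365999, with an mRNA of 593 bases. It had 119796 and 162140 counts in the protoapothecia libraries, or 19348 ± 3140.5 CPM per kb (SD, n = 2), and ranked 2 and 1 there by level per kb. In the sexual libraries it had 972 and 836 counts and in the vegetative libraries 0 and 2. Its 2 protoapothecia values lay more than 100 times above the higher sexual value, with a ratio of 121 of the lower protoapothecia CPM to the highest mycelium CPM.

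Next by level per kb was proteinId324922, with an mRNA of 1168 bases. It was counted 163991 and 182945 times in protoapothecia (12129.6 ± 319.6 CPM per kb, SD, n = 2), 4307 and 11279 times in sexual mycelium, and 1 and 11 times in vegetative mycelium. The sexual libraries differed by a factor of 2.45 in CPM for this gene, and the protoapothecia libraries by 1.04. Counts of proteinId344122 were 88826 and 94128 in protoapothecia (10981 ± 109.7 CPM per kb, SD, n = 2), 2080 and 2572 in sexual and 435 and 404 in vegetative mycelium. The 3 tissues thus formed a descending order without overlap for this gene. In contrast, proteinId340036 was nearly at 0 in vegetative mycelium, with 0 and 1 counts there, 1086 and 1577 in sexual mycelium, and 65626 and 91180 in protoapothecia (8105 ± 1463 CPM per kb, SD, n = 2).

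The other 4 of these 8 genes, like proteinId344122, kept a clear level in vegetative mycelium. In proteinId147183 the counts were 44520 and 74899 in protoapothecia, 2117 and 1773 in sexual and 3881 and 3665 in vegetative mycelium. Protoapothecia counts of proteinId339448 were 25669 and 46337, followed by 2500 and 2101 in vegetative and 1014 and 1126 in sexual mycelium. In both genes the vegetative libraries lay above the sexual ones. Counts of proteinId94759 were 53529 and 58685 in protoapothecia, 3812 and 4361 in sexual and 1196 and 1447 in vegetative mycelium. For proteinId338313 they were 124266 and 156682, 3457 and 3757, and 2394 and 1613 in the same order of tissues.

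The ratio of the lower protoapothecia CPM to the highest mycelium CPM had a median of 17.7 over the 97 genes, with a range of 10.01 to 122. The median was 27.3 without sexual replicate 2 and also with CPM scaled by TMM (trimmed mean of M-values), settings under which the rule would select 169 and 167 genes. With plain CPM and all libraries, the ratio was under 12 for 20 genes, under 20 for 56 genes and 50 or more for 14 genes. The highest mycelium library was a sexual one for 95 genes, replicate 1 in 38 and replicate 2 in 57 of them, and vegetative replicate 1 for the other 2. The ratio was highest for proteinId160736, at 122, with 15036 and 19362 counts in protoapothecia, 121 and 107 in sexual and 0 and 1 in vegetative mycelium. It was 100 or more in proteinId365999, given above, and in proteinId253389, at 100.5. The short model proteinId56774, of 461 bases, had a ratio of 90.1, with 1651 and 1934 counts in protoapothecia, 18 and 8 in sexual and 2 and 1 in vegetative mycelium.

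The values ran on without a gap across the thresholds of the selection. Just inside the ratio of 10 were proteinId397299 at 10.01, proteinId339448 at 10.16, proteinId138748 at 10.24 and proteinId341012 at 10.33. Just outside were proteinId341101 at 9.81 and proteinId341549 at 9.79, and 117 genes in all met the other conditions at a ratio of 5 to 10. Below 100 CPM, proteinId231846 (98.4 CPM in its lower protoapothecia library) and proteinId213991 (95.6 CPM) came nearest, and 25 genes met the other conditions at 50 to 100 CPM. A further 6 genes met both the abundance and the ratio condition but had no vegetative read. The most abundant of these were proteinId340920, with 15653 and 18781 counts in protoapothecia and 593 and 1389 in sexual mycelium, and proteinId341996, with 26216 and 5806 against 370 and 146.

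Detection in vegetative mycelium was therefore common among such genes: 97 of 103, or 94.2%, had a vegetative read. This is close to the share over all gene models, 91.8%, and below that of the 1442 genes at or above 100 CPM in both protoapothecia libraries, 98.5%. How much was detected differed widely. The sum over both vegetative libraries was 1 count in 11 genes, 2 to 10 counts in 22, 11 to 100 in 39 and over 100 in 25. A read was found in both vegetative libraries for 81 genes, whereas 13 were at 0 in replicate 1 and 3 in replicate 2. The 3 genes with the highest vegetative CPM, proteinId147183, proteinId339448 and proteinId338313, took 63.4% and 56.0% of all counts of the set in the vegetative libraries.

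Relative to protoapothecia, the measured vegetative level spanned a wider range across the set than the sexual one. The mean sexual CPM was 0.470% to 8.64% of the mean protoapothecia CPM of the same gene, with a median of 4.00%, and its highest value was 18.4 times its lowest. The mean vegetative CPM ran from 0.000611% to 6.48% of protoapothecia, with a median of 0.266%, and its highest value was 10611 times its lowest. That lowest value is of proteinId340036, with 0 and 1 vegetative counts, so this span reaches down to the counting floor. Across the 97 genes, log2 CPM in sexual mycelium went with log2 CPM in protoapothecia (Pearson r = 0.86, Spearman rho = 0.83), and log2 CPM in vegetative mycelium did so only weakly (r = 0.22, rho = 0.16). These values describe the genes, which share libraries and mRNA lengths. In addition, the vegetative values of the 33 genes with 1 to 10 vegetative counts are imprecise. The selection used these same values and caps every mycelium value at 10% of protoapothecia, so the correlations are not independent of it. Over the 1442 genes at or above 100 CPM in protoapothecia, without that cap, r was 0.41 for sexual mycelium, and for vegetative mycelium it was 0.08 over the 1421 of them with a vegetative read.

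**Figure D2:**
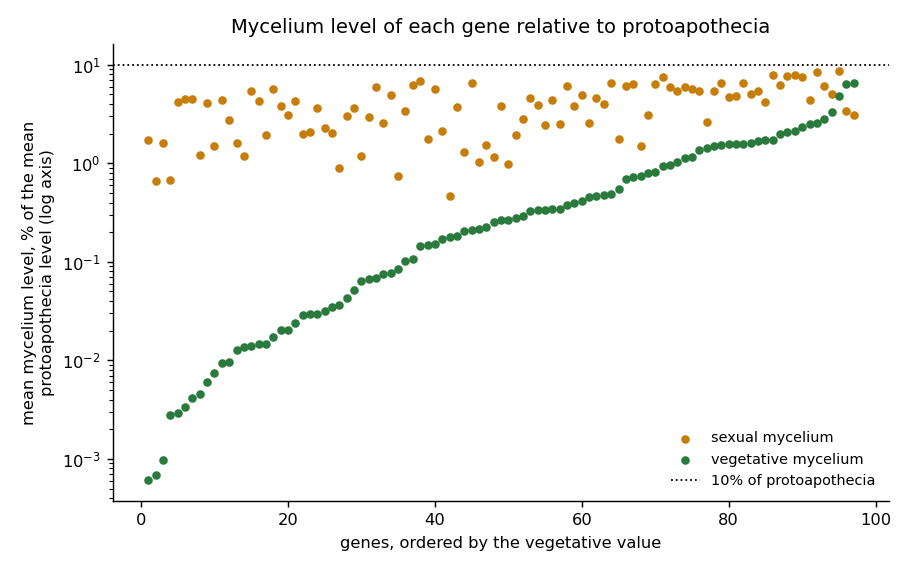
Mean CPM in sexual (orange) and vegetative (green) mycelium as a percent of the mean protoapothecia CPM of the same gene, on a log axis, for the 97 genes in order of the vegetative value. The dotted line is 10%, the cap that the selection sets on single libraries. The orange points stay between 0.470% and 8.64% while the green points run from 0.000611% to 6.48%. The lowest green point rests on 1 read.

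The comparison of sexual with vegetative mycelium was not what the genes were chosen on, and it was tested. The selection still bears on it, since it caps both mycelia and leaves out genes with no vegetative read. All 97 genes passed the filter on low counts. The protoapothecia counts that the selection demands are enough for that, so it says nothing of their mycelium counts. Of the 97 genes, 81 were higher and 2 lower in sexual mycelium, and 14 did not pass (edgeR quasi-likelihood test, Benjamini-Hochberg adjusted p under 0.05 over 8861 genes). Called genes made up 85.6% of the set, against 45.5% of all genes tested. Genes higher in sexual mycelium made up 83.5% of the set against 30.7%, and genes lower in sexual mycelium 2.06% against 14.8%. Among the 8485 tested genes with a vegetative read, as the selection demands, 28.6% were higher. The fit also drew on the protoapothecia libraries, by which the set was selected. With the mycelium libraries alone, 96 genes of the set passed the filter and 70 of them kept their call. Of all genes tested in that fit, 50.1% were called, so the set stood less far above the rest.

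The fitted log2 fold change of sexual over vegetative mycelium had a median of 2.78 over the 97 genes and 0.42 over all genes tested. The middle of the set ran from 1.32 to 5.36 (quartiles), and that of all genes tested from -0.41 to 1.72. By CPM, both sexual libraries were above both vegetative libraries in 95 genes, and below both in 2. The share of all genes with such an order was not counted, and CPM are not scaled by TMM. By the TMM-scaled fit, 94 of the 97 genes had a log2 fold change above 0, as did 5567 of the 8861 genes tested. The median of all genes tested moved with the scaling, from 0.18 under RLE scaling to 1.15 under scaling by library totals. A change of scaling moves all genes together, so the difference between the median of the set and that of all genes, 2.35 log2 units with the TMM scaling used here, hardly depends on it by construction. Over the other alternatives this difference ran from 2.10 without vegetative replicate 1 to 2.41 with the mycelia alone. Of all genes called, 67.5% were higher in sexual mycelium, against 57.5% under RLE scaling and 88.3% under scaling by totals. In the authors' deposited table, 75 of the 97 genes have a DESeq adjusted p under 0.05 with a ratio above 1, where 26.6% of all genes with a p-value do. The authors' deposited table has 2 of the 97 genes at such a p with a ratio below 1, against 19.8% of all genes. The genes called higher by both numbered 74 and those called lower by both 2.

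**Figure D3:**
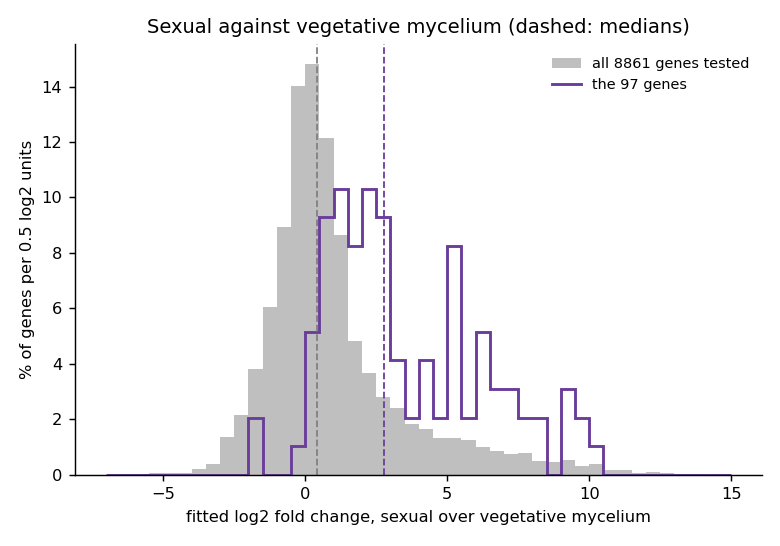
Distribution of the fitted log2 fold change of sexual over vegetative mycelium, as the percent of genes in bins of 0.5 log2 units, for all 8861 genes tested (grey) and for the 97 genes (violet line). Dashed lines are the medians, 0.42 and 2.78. The violet outline spreads to the right, from -1.80 to 10.41, with few genes below 0.

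The fitted fold changes were largest in genes with few vegetative reads. The 6 genes with the highest fitted fold changes had 1 to 12 vegetative counts in all. For proteinId340036, with its single vegetative read, the ratio of pooled scaled counts was 1650.2 (95% exact counting interval 296 to 65205; log2 fold change 10.41, SE 0.60, edgeR adjusted p = 0.000364). The gene proteinId363325, with 45566 and 51372 counts in protoapothecia, had 576 and 964 counts in sexual and 0 and 1 in vegetative mycelium. Its ratio was 954 (counting interval 171 to 37718; log2 fold change 9.62, SE 0.60, edgeR adjusted p = 0.000364). The wide intervals come from a denominator of 1 read, so neither the size of the ratio nor the order of these genes is well determined. The SE, derived from the test statistic, does not reflect that width.

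With 12 vegetative reads, proteinId324922 had a ratio of 805 (counting interval 461 to 1558; log2 fold change 9.61, SE 0.90, edgeR adjusted p = 0.000553). For proteinId365999 the ratio was 560.2 (counting interval 155 to 4629; log2 fold change 9.01, SE 0.65, edgeR adjusted p = 0.00048). Both genes, like proteinId340036, were thus among the 8 highest in protoapothecia and among the 6 with the highest fold change between the mycelia. The longest model of the set, proteinId393575 at 3241 bases, had 10915 and 21802 counts in protoapothecia, 313 and 1035 in sexual and 0 and 1 in vegetative mycelium. In proteinId397295 the counts were 9436 and 13594, 362 and 667, and 0 and 1. Their fitted log2 fold changes were 9.39 (SE 1.02, edgeR adjusted p = 0.000844) and 9.03 (SE 0.67, edgeR adjusted p = 0.00048).

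The 2 genes that were lower in sexual mycelium are those named above for their vegetative level. The log2 fold change was -1.80 in proteinId339448 (SE 0.33, edgeR adjusted p = 0.00506) and -1.63 in proteinId147183 (SE 0.32, edgeR adjusted p = 0.0067). By pooled scaled counts their vegetative level was 3.47 and 3.13 times the sexual one. In plain CPM, vegetative mycelium was at 6.48% and 6.38% of protoapothecia in these genes, and sexual mycelium at 3.06% and 3.36%. In both, protoapothecia stood highest and sexual mycelium lowest, without overlap of the libraries.

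**Figure D4:**
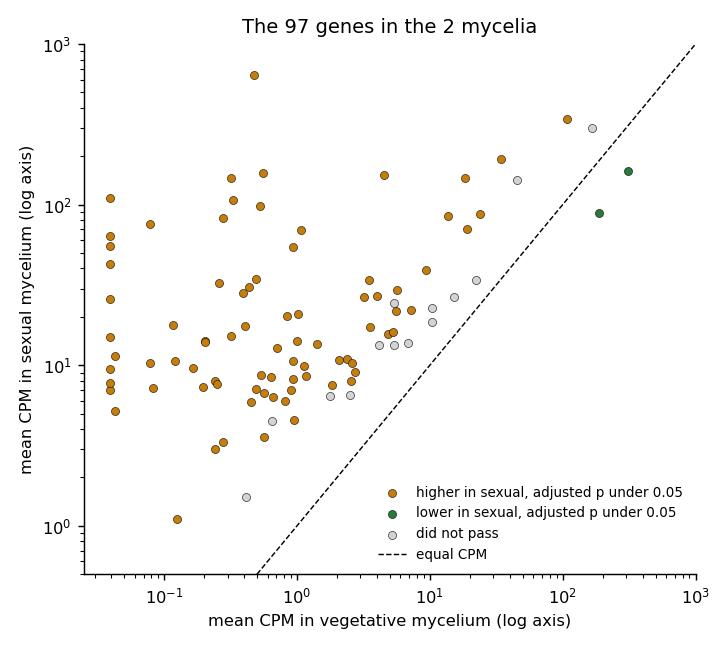
Mean CPM of the 97 genes in vegetative (x axis) and sexual (y axis) mycelium, both on log axes, coloured by the edgeR call at an adjusted p under 0.05, with a dashed line at equal CPM. The 81 orange genes lie above the line, the 2 green genes below it, and the 14 grey genes did not pass. Points at the left edge are genes with 1 or 2 vegetative reads.

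Of the 14 genes that did not pass, the fitted log2 fold changes were -0.11 to 2.07. The most abundant of them was proteinId338313, whose mean was 301 CPM in the sexual libraries and 165 CPM in the vegetative ones (log2 fold change 0.15, SE 0.29, edgeR adjusted p = 0.70). Its sign depended on the scaling: the log2 fold change was -0.10 under RLE scaling and 0.86 under scaling by totals, where it passed (edgeR adjusted p = 0.0427; range over 14 alternatives 0.0427 to 0.85). The gene proteinId341012 had 1048 and 2385 counts in sexual and 498 and 616 in vegetative mycelium (log2 fold change 0.90, SE 0.37, edgeR adjusted p = 0.083), and it passed in 2 of 14 alternatives, under scaling by totals (edgeR adjusted p = 0.0102) and without sexual replicate 1 (edgeR adjusted p = 0.0111; range 0.0102 to 0.444). In proteinId253389, one of the genes with the highest ratio of protoapothecia to mycelium, the counts were 97 and 58 in sexual and 23 and 39 in vegetative mycelium (edgeR adjusted p = 0.34). A p that misses the threshold does not show that these levels were alike.

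The set was then arranged by vegetative counts, in limits chosen after the values were seen. The 33 genes with 1 to 10 vegetative counts had a median protoapothecia level of 568 CPM and a median sexual level of 14.03 CPM. For the 39 genes with 11 to 100 counts these medians were 275 and 10.4 CPM, and for the 25 genes with over 100 counts 892 and 34.0 CPM. These values are not corrected for length, and the tiers had median mRNA lengths of 1052, 849 and 1218 bases. Per kb, the protoapothecia medians rose from tier to tier, at 342, 431 and 777 CPM per kb. As a percent of protoapothecia, the median sexual level was 3.11%, 4.00% and 4.76% in these tiers, over ranges that overlapped widely. The number higher in sexual mycelium was 32 of 33, 36 of 39 and 13 of 25, where the sorting itself used the vegetative counts of that comparison. The shares over all tested genes in the same tiers were not counted, so the fall cannot be read as a trait of the set.

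In the lowest tier the reads were spread unevenly over the vegetative libraries. Its 33 genes had 46 counts in vegetative replicate 1 and 91 in replicate 2, so that replicate 2 held 66.4% of them. Over all gene models with 1 to 10 vegetative counts replicate 2 held 56.2%, and it held 52.4% of the total counts of both libraries. Of the 11 genes with a single vegetative read, 9 had it in replicate 2 and 2 in replicate 1. In the tier with over 100 counts the sums were 13246 and 12331 counts, and 14 of 25 genes had more counts in replicate 1. The source of the single reads was not tested.

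Replicates of protoapothecia were close for most of the 97 genes. The ratio of replicate 2 to replicate 1 in CPM had a median of 1.10 and quartiles of 0.923 and 1.26, and 65 genes, or 67.0%, were higher in replicate 2. Among all tested genes with counts in both the share was 47.3%. Among the 1442 abundant genes it was 55.0% of those with an mRNA under the median of all gene models and 55.7% of the longer ones. The 2 libraries were over 2-fold apart in 4 genes, or 4.12%, close to the 3.81% of all genes at or above 100 CPM in both. Among all tested genes with counts in both libraries the share was 17.6%. The selection acts on the lower of the 2 libraries, so the closeness is not independent of it. Among the 97 genes the widest was proteinId160461, with 1595 and 5213 counts and a ratio of 3.04. The opposite held in proteinId72440, with 36555 and 14446 counts and a ratio of 0.368, and in proteinId253389, with 22834 and 10661 counts and a ratio of 0.434. The levels of these genes in protoapothecia are thus less certain than those of the others. For proteinId160461 the difference between the mycelia also passed (log2 fold change 2.78, SE 0.63, edgeR adjusted p = 0.0126), but not without vegetative replicate 1 (edgeR adjusted p = 0.0797; range over 14 alternatives 0.000333 to 0.0797). It did not pass for proteinId72440 (edgeR adjusted p = 0.080), but did in 3 of 14 alternatives, among them scaling by totals (edgeR adjusted p = 0.0178) and leaving out sexual replicate 2 (edgeR adjusted p = 0.0344; range 0.0178 to 0.416).

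For the 97 genes the sexual libraries differed more, at far lower counts. Replicate 2 over replicate 1 ran from 0.259 to 3.11 with a median of 1.07, and 19 genes, or 19.6%, were over 2-fold apart. The share was 15.0% among the 1442 genes abundant in protoapothecia. Among all tested genes with counts in both it was 15.1%, below the 17.6% of the protoapothecia libraries. The ratio of the sexual replicates moved with mRNA length. Of the 62 genes with an mRNA under the median of all gene models, 1230 bases, 28 (45.2%) were higher in replicate 2, and their median ratio was 0.959. Of the 35 longer genes, 30 (85.7%) were higher in replicate 2, with a median ratio of 1.52. The same split was present outside the set: 80.2% of the longer and 51.1% of the shorter among the 1442 genes abundant in protoapothecia were higher in replicate 2, and 73.5% and 49.4% among all tested genes with counts in both. The correlation of the log2 ratio with log2 length was r = 0.51 (rho = 0.54) across the 97 genes, which share both libraries, 0.29 (rho = 0.37) across the 1442 abundant genes and 0.18 (rho = 0.26) across 8831 tested genes.

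In the protoapothecia libraries the same correlation was 0.17 over the 97 genes. In the vegetative libraries it was -0.04 over the 81 genes with reads in both. Most of the longer genes thus stood higher in sexual replicate 2, as the longest model proteinId393575 did with 27.0 and 83.4 CPM in replicates 1 and 2, while the shorter genes fell on both sides. The part of mRNA length in the comparison of the mycelia was not tested.

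**Figure D5:**
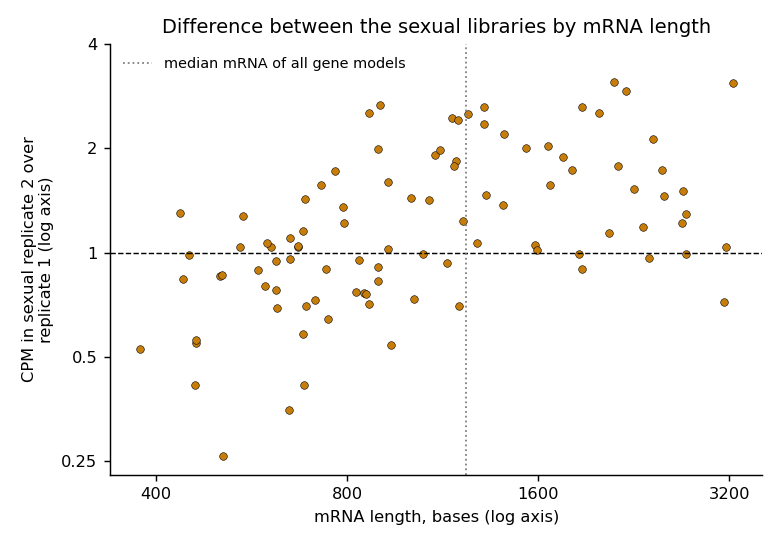
CPM in sexual replicate 2 over that in sexual replicate 1 against mRNA length for each of the 97 genes, both on log axes. The dashed line marks equal CPM and the dotted line the median length of all gene models, 1230 bases. Left of the dotted line points fall on both sides of 1, and right of it 30 of 35 lie above 1.

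The mRNAs of the set were short. Their median was 938 bases, with a range of 377 to 3241 bases, against 1230 bases over all gene models and 1372 bases over the 1442 genes at or above 100 CPM in protoapothecia. An mRNA of 769 bases or less, the first quartile of all gene models, was found in 34 genes, or 35.1%, against 16.4% of those 1442 genes. Length was not part of the selection, and the abundance threshold was set on CPM without length correction. How the selection bears on mRNA length was not tested.

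The shortest models were proteinId342491 at 377 bases and proteinId67614 at 436 bases. The first had 1730 and 2060 counts in protoapothecia, 23 and 13 in sexual and 6 and 4 in vegetative mycelium, and its difference between the mycelia did not pass (edgeR adjusted p = 0.094). It did so in 2 of 14 alternatives, under scaling by totals (edgeR adjusted p = 0.0129) and without sexual replicate 2 (edgeR adjusted p = 0.0338; range 0.0129 to 0.46). The gene proteinId67614 had 2651 and 1390 counts in protoapothecia, 64 and 89 in sexual and 8 in each vegetative library, and was higher in sexual mycelium (log2 fold change 2.54, SE 0.46, edgeR adjusted p = 0.00501). Among the longest models was proteinId397506 at 3158 bases, with 2966 and 1631 counts in protoapothecia, 118 and 131 in sexual and 25 and 39 in vegetative mycelium. Its log2 fold change of 1.27 (SE 0.39) passed at an edgeR adjusted p of 0.0328, but in 7 of 14 alternatives the call was lost, with an adjusted p between 0.00494 and 0.186 over all of them. It was lost without any 1 of the 4 mycelium libraries, with the highest value without vegetative replicate 1.

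The smallest differences that passed were close to 2-fold. In proteinId364276 the counts were 182 and 204 in sexual and 73 and 56 in vegetative mycelium, with 3437 and 4982 in protoapothecia (log2 fold change 0.88, SE 0.28, edgeR adjusted p = 0.0402). For proteinId394776 they were 238 and 291, 94 and 81, and 5183 and 6141 in the same order (log2 fold change 0.90, SE 0.24, edgeR adjusted p = 0.0212). For proteinId210022 they were 91 and 100, 27 and 36, and 1677 and 2192 (log2 fold change 0.91, SE 0.26, edgeR adjusted p = 0.0277). The sexual counts lay above the vegetative ones in each, but the calls were lost in 8, 6 and 7 of 14 alternatives, where the adjusted p reached 0.239, 0.162 and 0.19. Each was lost under RLE scaling, with DESeq2 and without either vegetative library.

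Of the 20 genes named here that passed between the mycelia, these 3 and 6 more lost the call in some alternative. Beside proteinId397506 and proteinId160461, one was proteinId56774 (log2 fold change 2.37, SE 0.71, edgeR adjusted p = 0.032; 0.00709 to 0.163 over 13 alternatives), whose 3 vegetative reads give a ratio of 5.37 with a counting interval of 1.65 to 27.7. That call was lost without any single library other than sexual replicate 2, with the highest value without vegetative replicate 2. The call of proteinId94759 (log2 fold change 0.94, SE 0.22, edgeR adjusted p = 0.0139; 0.00156 to 0.138 over 14) was lost without vegetative replicate 1 (adjusted p = 0.138) or 2 (adjusted p = 0.0812) in the edgeR fit. In proteinId397299, with 59 and 139 counts in sexual and 18 and 4 in vegetative mycelium, the edgeR adjusted p of 0.0222 became 0.0822 without sexual replicate 2 and 0.0822 without vegetative replicate 2 (range 0.00345 to 0.0822). In proteinId138748, with 148 and 111 against 25 and 33 counts, the edgeR adjusted p of 0.00825 became 0.0729 without vegetative replicate 1 (range 0.0012 to 0.0729).

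The calls of the other 11 named genes were kept in every alternative. That of proteinId344122 held with a log2 fold change of 1.77 (SE 0.23, edgeR adjusted p = 0.00144; at most 0.0236 over 14 alternatives). That of proteinId160736 held at 6.89 (SE 0.60, edgeR adjusted p = 0.00048; at most 0.00573), with a ratio of 141 and a counting interval of 25.1 to 5605. Both genes that were lower in sexual mycelium kept their call, with an edgeR adjusted p of at most 0.0411 in proteinId339448 and 0.049 in proteinId147183.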

How the data were processed

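The 6 libraries came from linearly amplified total RNA and were sequenced by Illumina protocols, per the labels. The deposited table holds raw counts and an mRNA length for each gene model, per the file headers. Aligner, counter, build and use of strand were not given in the sources used here, so near-identical copies may share reads. The authors' linear ratio and adjusted p-value come from DESeq, per the submitters' processing notes (version not given), are rounded to 2 decimals and were used for sexual over vegetative mycelium only.

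CPM were counts over column totals, given per kb of mRNA where stated. Genes were filtered with filterByExpr (8861 of 9622 kept), scaled by TMM and fitted by group over all 6 libraries with edgeR 4.0.16 (limma 3.58.1, R 4.3.3; robust quasi-likelihood, 3 residual degrees of freedom). TMM factors were 1.32 and 1.41 for the sexual, 0.84 and 0.819 for the vegetative, and 0.895 and 0.872 for the protoapothecia libraries. Each SE was taken as the absolute log2 fold change over the square root of the quasi-likelihood F statistic. The fit was tried on simulated counts, with modest changes placed only in genes that had more than a few reads. These counts were drawn with the spread estimated from the same 6 libraries, so the trial cannot show whether that estimate holds. Genes with few vegetative reads and the largest fold changes reported here were not covered by the trial. Alternatives were RLE, upper-quartile and total scaling, other filters, DESeq2 1.42.0, the mycelia alone, a replicate block, and each library left out. Intervals are 95% Clopper-Pearson on pooled reads and reflect counting error alone. They leave out the spread between replicates, and amplified molecules can be read repeatedly, so they may be too narrow.

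The genes and the rules were chosen with earlier results of these data known. Named are the 8 highest per kb, the 4 highest and 4 lowest ratios, the 6 highest and 6 lowest fold changes between the mycelia (adjusted p under 0.05, mean of at least 20 counts), the 3 widest replicates, the 3 highest in vegetative mycelium, 3 with 1 vegetative read, the 2 longest and 2 shortest, and the 2 genes nearest outside each threshold. Lists by function could not be matched to identifiers and were not used. Figures were drawn with matplotlib 3.10.9.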

Additional observations from a re-analysis of the deposited data

How the results depend on the processing

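The size of the set depended on its thresholds: it held 167 genes with TMM-scaled CPM, 96 of them shared, 214 with a ratio of 5 and 41 with a ratio of 20. Without single libraries it held 85 to 169 genes, the most without sexual replicate 2. The median ratio of protoapothecia to mycelium, 17.7, became 27.3 with TMM-scaled CPM and 17.7 to 27.3 without single libraries, the highest again without sexual replicate 2; by construction, leaving out a library cannot lower the ratio of a gene. Between the mycelia, 65 to 95 of the 97 genes were called under 14 alternatives and the crossed block, with 2 lower in each and 0 called in opposite directions. Leaving out vegetative replicate 1 or 2 lowered the calls among all genes from 4033 to 2129 or 2421 (2129 to 4276 without single libraries), and those of the set to 65 or 70. The cause was not tested; a lone library is taken to vary as much as those of the other groups. The median log2 fold change of the set, 2.78, was 2.54 with RLE factors, 3.50 with library totals, 2.55 with the mycelia alone, 2.55 with DESeq2 and 2.51 to 2.82 without single libraries. For proteinId338313 the sign turned, to -0.10 with RLE factors, -0.086 with the mycelia alone and -0.10 with DESeq2, and it ran from -0.14 (without vegetative replicate 2) to 0.53 (without vegetative replicate 1) when single libraries were left out. Same-numbered libraries did not deviate together (r = -0.16, 0.04 and -0.03 between the groups), so the numbers were not taken as pairs. A replicate block gave 81 called genes of the set and 3696 of all, with proteinId72440 now passing (edgeR adjusted p = 0.0364), and swapped sexual numbers, added after the data were seen, 84 and 3762. With 2 libraries per group the spread of a single gene is poorly known. A ratio whose vegetative level rests on 1 to 3 reads is known no better than its counting interval, which may be too narrow.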
